A study of Homo sapiens with 3 samples.

Results

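The 11q13 segment described here is a stretch of 1.5 Mb of chromosome 11, starting at position 68900001 of hg19, that carries MYEOV, CCND1, ANO1, FADD, PPFIA1 and CTTN. A p300/CBP peak was counted in it when the peak centre lay between these edges, which gave 97 peaks of the control list and 52 of the Fra-1 knockdown list, or 149 of 122221 peaks in all. The segment was chosen on measured values: the widest control peak that a knockdown peak overlaps and the widest control peak that none overlaps, ranked over all of the control list, both lie here. Widths and sharing between the lists are therefore given as a description and were not tested. The genes that the segment carries are part of its label, so peak counts and distances around them are not independent of the choice either. Sequence content was not used in the choice. The share of peaks with a sequence motif differed with width over the series, however, so motif shares are not independent of the choice. At the centromeric edge a knockdown peak of 650 bp (chr11:68890052-68890701) fell just outside and a control peak of 100 bp ended at 68899801, while the nearest peaks inside were a knockdown peak of 150 bp (chr11:68905152-68905301) and a control peak of 150 bp (chr11:68918352-68918501). At the telomeric edge the last control peak inside ended at 70364751 and the last knockdown peak inside at 70270401, and the first peaks outside started at 70437402 and 70403302.

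MDA-MB-231 is an established human breast cancer line of the triple-negative, basal b type. The cells had been transfected for 72 h with a control siRNA (siCTL) or with 3 mixed siRNAs against the transcription factor Fra-1 (siFra-1), in either case at 4.5 nM in total, then fixed for 7 min, and chromatin was precipitated with an antibody that recognises p300/CBP. Each condition is 1 library made from pooled immunoprecipitations and is represented by 1 list of peak positions, so replicate error is unknown and no p-value is given. An input DNA sample of the same cells was not analysed here, and the lists hold no read counts, no peak heights and no RNA levels, so depth is unknown and the knockdown itself cannot be checked in them.

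p300 and CBP are related lysine acetyltransferases that transcription factors bring to enhancers and promoters, where they acetylate histones. Fra-1, encoded by FOSL1, pairs with Jun proteins into AP-1 dimers, which bind the palindrome-like motif TGAGTCA and its reverse complement TGACTCA. The 11q13 band is a gene-dense region that is often amplified in breast and in head and neck carcinomas. Its genes include CCND1, which encodes the cell cycle regulator cyclin D1, and CTTN, which encodes the actin-binding protein cortactin. ANO1 encodes a calcium-activated chloride channel, FADD an adaptor of death receptors, and PPFIA1 the scaffold protein liprin alpha 1. MYEOV was named for its overexpression in myeloma.

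The sequences below carry the AP-1 motifs (in capitals) found inside the peaks of at least 250 bp, called wide here. They are shown because AP-1 dimers bind this motif. The paper reports that Fra-1 can also bind degenerate forms of it, which are not marked. The printed sequences are GRCh37 plus strand, extend 40 bp beyond the outermost motif, and contain no annotated UTR. The first 4 come from the cluster just past the coding transcripts of MYEOV, where every motif of a wide peak lay in both lists. A further motif of this cluster, at 69068022, lay in a siFra-1 peak of 100 bp alone and is not printed.
widest shared siCTL peak, chr11:69065028-69065139: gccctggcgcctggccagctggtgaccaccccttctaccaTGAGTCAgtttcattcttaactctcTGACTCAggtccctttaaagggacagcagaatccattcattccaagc
the next peak of the MYEOV cluster, chr11:69066048-69066134: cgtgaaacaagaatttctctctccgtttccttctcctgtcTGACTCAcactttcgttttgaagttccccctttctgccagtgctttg
MYEOV cluster, start of the 1200 bp siCTL peak, chr11:69069185-69069281: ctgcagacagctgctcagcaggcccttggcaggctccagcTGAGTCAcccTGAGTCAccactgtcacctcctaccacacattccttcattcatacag
MYEOV cluster, middle of the 1200 bp siCTL peak, chr11:69069541-69069627: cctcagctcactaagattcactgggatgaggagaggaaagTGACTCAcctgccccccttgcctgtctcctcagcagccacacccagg

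The 1200 bp siCTL peak holds a pair of motifs whose starts, at 69069225 and 69069235, are 10 bp apart. This pair lies at offsets of -273 and -263 bp from the peak centre, and so not at the peak edge. The next 3 sequences hold motifs that lay in a wide peak of 1 list only. The first is from a 550 bp siCTL peak inside the long non-coding transcript of MYEOV, the next from a site between FGF19 and FGF4 where the siFra-1 peak is the wider one, and the last from the widest siCTL peak with no siFra-1 overlap, upstream of ANO1.
550 bp siCTL peak, both motifs outside the siFra-1 peak, chr11:69089361-69089510: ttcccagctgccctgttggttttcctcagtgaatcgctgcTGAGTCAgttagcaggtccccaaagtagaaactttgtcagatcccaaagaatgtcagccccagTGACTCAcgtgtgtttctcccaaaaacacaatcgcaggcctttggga
FGF19 to FGF4, motif in the siFra-1 peak only, chr11:69559409-69559495: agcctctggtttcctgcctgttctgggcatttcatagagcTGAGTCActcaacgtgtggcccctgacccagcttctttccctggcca
widest siCTL-only peak, chr11:69794677-69794879: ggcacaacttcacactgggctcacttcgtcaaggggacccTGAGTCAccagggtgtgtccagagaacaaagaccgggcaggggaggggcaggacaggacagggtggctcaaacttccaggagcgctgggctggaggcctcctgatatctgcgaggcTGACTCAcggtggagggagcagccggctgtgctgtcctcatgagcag

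The following 3 are the remaining motif-bearing wide sites, present in both lists: between MYEOV and CCND1, beside the widest siCTL-only peak, and in an ANO1 intron.
between MYEOV and CCND1, chr11:69235469-69235555: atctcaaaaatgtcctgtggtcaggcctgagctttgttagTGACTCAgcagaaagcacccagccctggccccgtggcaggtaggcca
upstream of ANO1, identical peaks in both lists, chr11:69795603-69795689: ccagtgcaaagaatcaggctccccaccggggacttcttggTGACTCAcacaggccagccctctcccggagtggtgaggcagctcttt
ANO1 intron, chr11:70005793-70005879: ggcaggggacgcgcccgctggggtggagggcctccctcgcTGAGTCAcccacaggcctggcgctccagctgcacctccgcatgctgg

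By contrast, the siCTL peak just past the 3′ end of CCND1, which lies inside a siFra-1 peak of 900 bp, holds none of the 6 motifs searched. Neither does that siFra-1 peak, although the looser AP-1 form TGANTCA is found at 1 position of it. The siCTL peak is printed whole so that both kinds of site can be compared.
3′ end of CCND1, siCTL peak, chr11:69469452-69469651: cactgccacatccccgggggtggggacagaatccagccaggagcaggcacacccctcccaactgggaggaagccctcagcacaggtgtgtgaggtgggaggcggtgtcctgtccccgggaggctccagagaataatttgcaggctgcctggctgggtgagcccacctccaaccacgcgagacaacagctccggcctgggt

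The segment was rich in p300/CBP peaks in both libraries. It held 64.7 siCTL and 34.7 siFra-1 peaks per Mb, against 37.0 and 16.5 on the rest of chromosome 11 and 26.8 and 12.7 over the series. When the genome was cut into 1922 windows of 1.5 Mb, 126 of them (6.56%) held at least as many siCTL peaks as the segment and 111 (5.78%) at least as many siFra-1 peaks. For wide peaks, which entered the choice of the segment, 32 windows (1.66%) reached the 11 wide siCTL peaks and 87 (4.53%) reached the 12 wide siFra-1 peaks, where the median window held 1 and 2. The bases under peaks came to 16.4 and 11.75 kb.

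Fewer peaks were listed in siFra-1 than in siCTL, and the difference lay in the narrow ones. The ratio of siFra-1 to siCTL peak numbers was 0.536 (95% interval 0.375 to 0.758), beside 0.474 over the series and 0.445 on the rest of chromosome 11. The minimum width of 100 bp was that of 70 peaks in the first list and 32 in the other, giving 0.457 (0.291 to 0.704). Peaks of 150 or 200 bp numbered 16 and 8. Of wide peaks siCTL had 11 and siFra-1 had 12, so that the ratio became 1.09 (0.441 to 2.73), beside 1.63 (1.34 to 1.98) on the rest of chromosome 11 and 1.64 over the series. The interval of the segment contains both 1 and those values. As width entered the choice of the segment, nothing is read from the comparison of wide peaks. These intervals cover counting error over peaks alone and compare 2 libraries.

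**Figure D1:**
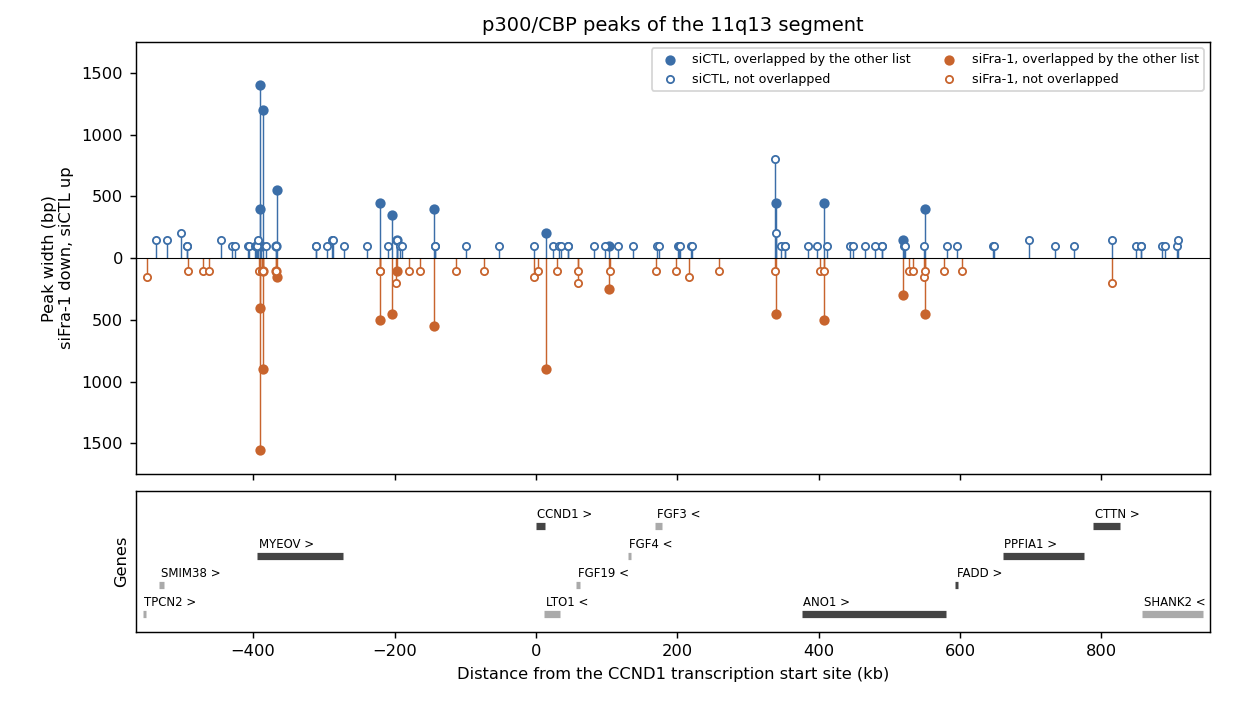
Width in bp of each peak of the 11q13 segment against the distance of its centre from the CCND1 start in kb, siCTL upwards and siFra-1 downwards, with filled points for peaks that the other list overlaps and open points for the rest; the lower panel gives the protein-coding genes with a symbol (dark bars, the 6 named genes; arrowheads, strand). The tall stems stand at MYEOV, and the tallest open point, at 800 bp, lies upstream of ANO1.

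Windows of the same length, centred on SOX9 and on FOSL1, gave comparable counts. The SOX9 window held 92 siCTL and 48 siFra-1 peaks, 11 and 12 of them wide, and the FOSL1 window 123 and 83, with 15 and 18 wide. The number ratios, 0.522 (0.360 to 0.747) and 0.675 (0.505 to 0.899), have intervals that overlap that of the 11q13 segment. The segment differed from them in its longest peaks, which is how it was chosen: no siCTL peak exceeded 600 bp in the SOX9 window or 800 bp in the FOSL1 window.

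Sharing between the lists followed width. In siCTL, 16 of 97 peaks (16.5%, 10.4 to 25.1) shared at least 1 bp with the siFra-1 list, where 9.56% of all siCTL peaks were. In siFra-1 the count was 16 of 52 (30.8%, 19.9 to 44.3), where 19.1% of all were. Among wide peaks 10 of 11 in siCTL and 12 of 12 in siFra-1 were overlapped, beside 85.0% and 68.2% over the series. Only 3 of 70 siCTL and 3 of 32 siFra-1 peaks of 100 bp were. These shares were part of what chose the segment, and no more is read from them.

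For peaks that did not overlap, the distance to the other list was measured. The 36 siFra-1 peaks without overlap lay a median of 2.475 kb from the nearest siCTL peak, and 12 of them within 500 bp of one. The 81 siCTL peaks without overlap lay a median of 12.2 kb from the nearest siFra-1 peak, and 10 within 500 bp. The siCTL list is the longer one, and the part of list length in these distances was not tested. The same distances were not computed over the series, so no difference in placement is read from them.

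The cluster at MYEOV held the widest peaks of the segment in both lists. The MYEOV gene (ENSG00000172927) is annotated at chr11:69061605-69182494 on the plus strand, but its protein-coding transcripts end at 69064754 and a long non-coding transcript makes up the rest. The widest shared siCTL peak, chr11:69064302-69065701 (1400 bp), straddles that 3′ end, so its centre lies in an intron of the non-coding transcript alone. Its siFra-1 counterpart, chr11:69064452-69066001, was 1550 bp and reached 300 bp further downstream, so that it also touched the next siCTL peak of 400 bp (chr11:69065902-69066301). That siCTL peak in turn overlapped a siFra-1 peak of 400 bp, chr11:69066052-69066451, shifted downstream. The siCTL peak of 1200 bp, chr11:69068902-69070101, was met by siFra-1 peaks of 900 bp (chr11:69068852-69069751) and 100 bp. Among pairs of the segment with both peaks wide, the pair with the 900 bp peak is the only one in which the siFra-1 peak was narrower. All 6 AP-1 motifs in the wide peaks of this cluster, printed above, were inside peaks of both lists.

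Further into the non-coding transcript of MYEOV, 27.8 kb from the gene start, the lists differed more. The siCTL peak chr11:69089152-69089701 was 550 bp and the siFra-1 peak inside it, chr11:69089502-69089651, was 150 bp. Both AP-1 motifs of the siCTL peak, at 69089401 and 69089464, lay outside the siFra-1 interval. Near the start of MYEOV the siCTL list alone had peaks, one of 100 bp in the UTR at chr11:69061802-69061901 and one of 150 bp in an intron at chr11:69062302-69062451, and the nearest siFra-1 peak was 1.95 kb from the start.

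**Figure D2:**
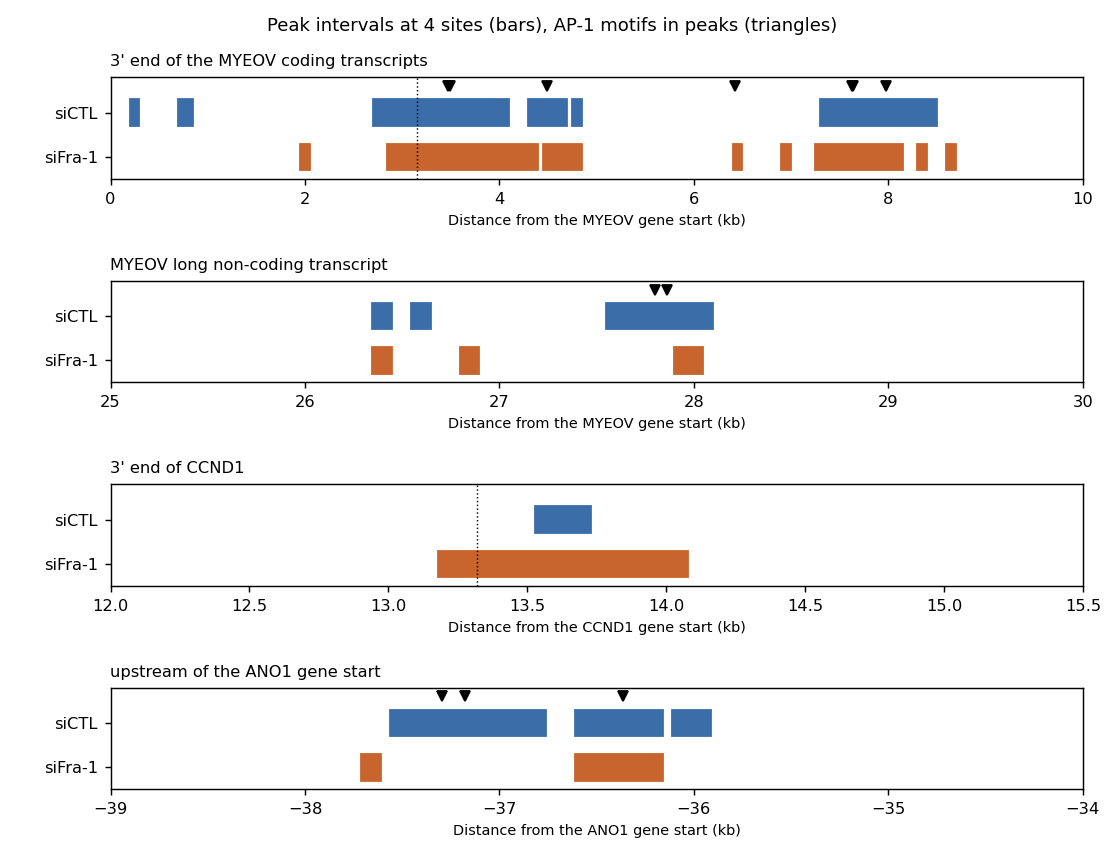
Peak intervals of siCTL (upper bars) and siFra-1 (lower bars) at 4 sites against distance in kb from the start of the gene named under each axis; triangles mark AP-1 motifs inside a peak of either list, and dotted lines mark the end of the MYEOV coding transcripts and of CCND1. The MYEOV cluster is covered in both lists, the 900 bp siFra-1 bar at CCND1 has no triangle (TGAGTCA or TGACTCA), and the siCTL bar of 800 bp upstream of ANO1 has 2 triangles and no siFra-1 bar beneath it.

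Between MYEOV and CCND1 there are no further protein-coding genes, and 3 wide sites were present in both lists, each wider in siFra-1. The siCTL peak of 450 bp at chr11:69235252-69235701 met a siFra-1 peak of 500 bp at chr11:69235152-69235651. The siCTL peak of 350 bp at chr11:69251752-69252101 met one of 450 bp at chr11:69251802-69252251. The siCTL peak of 400 bp at chr11:69312002-69312401, 143.7 kb before the CCND1 start, met one of 550 bp at chr11:69311952-69312501. An AP-1 motif was found in the first of these sites alone, a TEAD motif (GGAATG or its reverse complement) in the other two, and a RUNX motif (TGTGGT or its reverse complement) in all 3.

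CCND1 (ENSG00000110092, chr11:69455924-69469242, plus strand) had no wide siCTL peak within 100 kb of its start. Upstream of the start, 2.42 and 2.22 kb away, a siCTL peak of 100 bp (chr11:69453402-69453501) and a siFra-1 peak of 150 bp (chr11:69453552-69453701) lay side by side, 50 bp apart, and so did not count as shared. Just past the 3′ end a siCTL peak of 200 bp (chr11:69469452-69469651) lay within a siFra-1 peak of 900 bp (chr11:69469102-69470001). That siFra-1 peak covers the end of CCND1, including part of its UTR, and lies in an intron of LTO1, a gene of the opposite strand. It was the joint widest siFra-1 peak after the 1550 bp peak at MYEOV, and the gain of 700 bp was the largest among pairs that were not split across neighbours. Inside the CCND1 gene the siFra-1 list also had an intronic peak of 100 bp at chr11:69458852-69458951, while the siCTL list had none.

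The fibroblast growth factor genes FGF19, FGF4 and FGF3, which encode secreted ligands, follow CCND1. From the CCND1 start to the FGF3 end there were 13 siCTL peaks, none of them wide, and 8 siFra-1 peaks, 2 of them wide. The other wide one, chr11:69559352-69559601 (250 bp) between FGF19 and FGF4, lay over a siCTL peak of 100 bp (chr11:69559452-69559551), and the AP-1 motif at 69559449 fell within the siFra-1 peak but began before the siCTL start. Wide siCTL peaks were absent over 482.05 kb, from 69312401 to 69794452, whereas the longest gap between neighbouring wide siFra-1 peaks was 235.8 kb. Beyond the last wide peak of either list, in an ANO1 intron, 393.8 kb up to the telomeric edge held none.

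Upstream of ANO1 (ENSG00000131620, chr11:69832013-70035636, plus strand) lay the widest siCTL peak of the series without a siFra-1 overlap, chr11:69794452-69795251 (800 bp), ahead of one of 600 bp on chromosome 3. It is intergenic, 37.2 kb from the first annotated ANO1 start and 129.6 kb from the start of the canonical transcript at 69924423. The site was not empty of siFra-1 peaks: one of 100 bp, chr11:69794302-69794401, lay 50 bp before it, and the next siCTL peak, chr11:69795402-69795851 (450 bp), was matched by a siFra-1 peak with the same start and end. A siCTL peak of 200 bp, chr11:69795902-69796101, followed without overlap. The 800 bp peak held AP-1 motifs at 69794717 and 69794833, and the identical peaks held 1 at 69795643.

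Within ANO1, in introns, 3 pairs had a wide peak in at least 1 list and all were wider in siFra-1. They measured 450 bp in siCTL and 500 bp in siFra-1 at chr11:69863052-69863501, 150 and 300 bp at chr11:69974502-69974651, and 400 and 450 bp at chr11:70005752-70006151 (siCTL positions). The start positions of the last 2 sites were equal in both lists, and the extra bins were on the telomeric side. Over the gene body ANO1 held 15 siCTL and 10 siFra-1 peaks.

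From the end of FADD to the telomeric edge, 346.5 kb that hold PPFIA1 and CTTN, all peaks were narrow and the siFra-1 list was sparse. The lists had 13 and 2 peaks there, or 37.5 and 5.77 per Mb, where the rest of chromosome 11 had 37.0 and 16.5. The FADD end was not among the gene landmarks set in advance, and no interval was computed for these counts. All were of 100 to 200 bp and none overlapped between the lists. Over the series, 3.79% of siCTL and 6.56% of siFra-1 peaks of 100 bp overlapped. For peaks of 150 or 200 bp these shares were 21.7% and 28.1%. PPFIA1 (ENSG00000131626, chr11:70116796-70231418) held 3 siCTL peaks and no siFra-1 peak, and its start was 58.2 kb from the nearest siFra-1 peak. In CTTN (ENSG00000085733, chr11:70244510-70282690) an intron held a siCTL peak of 150 bp (chr11:70270852-70271001) and a siFra-1 peak of 200 bp (chr11:70270202-70270401), 450 bp apart, each with its own AP-1 motif. Beyond the end of CTTN there were 7 siCTL peaks and no siFra-1 peak, so the ratio was 0 with an upper bound of 0.694. That interval contains the ratios of 0.474 over the series and 0.445 on the rest of chromosome 11.

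**Figure D3:**
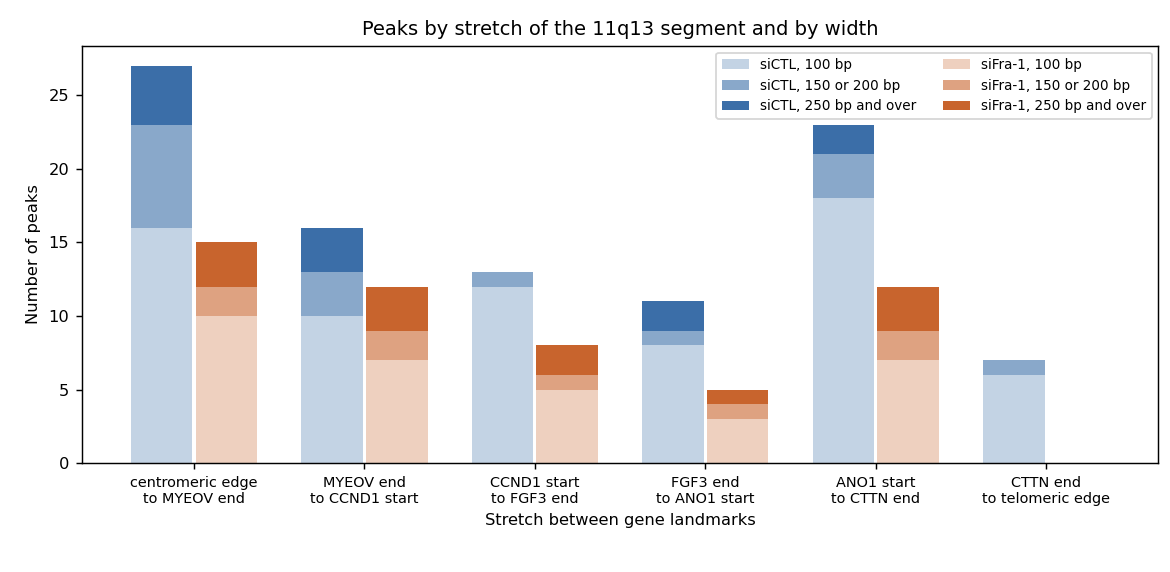
Number of peaks in 6 stretches of the segment between gene landmarks, siCTL (blue) beside siFra-1 (orange), with shading by width class. The siFra-1 bars are shorter in all 6 stretches, and from the CCND1 start to the FGF3 end the wide class is present in siFra-1 alone.

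In each of the 6 stretches between gene landmarks the siFra-1 list was the shorter. The counts were 27 and 15 up to the MYEOV end, 16 and 12 on to the CCND1 start, 13 and 8 on to the FGF3 end, 11 and 5 on to the ANO1 start, 23 and 12 on to the CTTN end, and 7 and 0 to the telomeric edge. The ratio ran from 0.455 to 0.750 over the first 5 stretches, and their intervals overlap, so no order among them is read.

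Across the 18 overlapping pairs of the segment the siFra-1 peak was wider in 11, narrower in 4 and equal in 3, of which 2 had the same start and end. Some peaks stand in more than 1 pair. Of the 10 pairs in which both peaks were wide, 7 were wider in siFra-1, 1 was narrower and 2 were equal, with a median difference of 50 bp. Over the series, 62.3% of 2544 such pairs were wider and 23.3% narrower in siFra-1, also with a median difference of 50 bp. As positions lie on a grid of 50 bp, that is a difference of 1 bin.

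**Figure D4:**
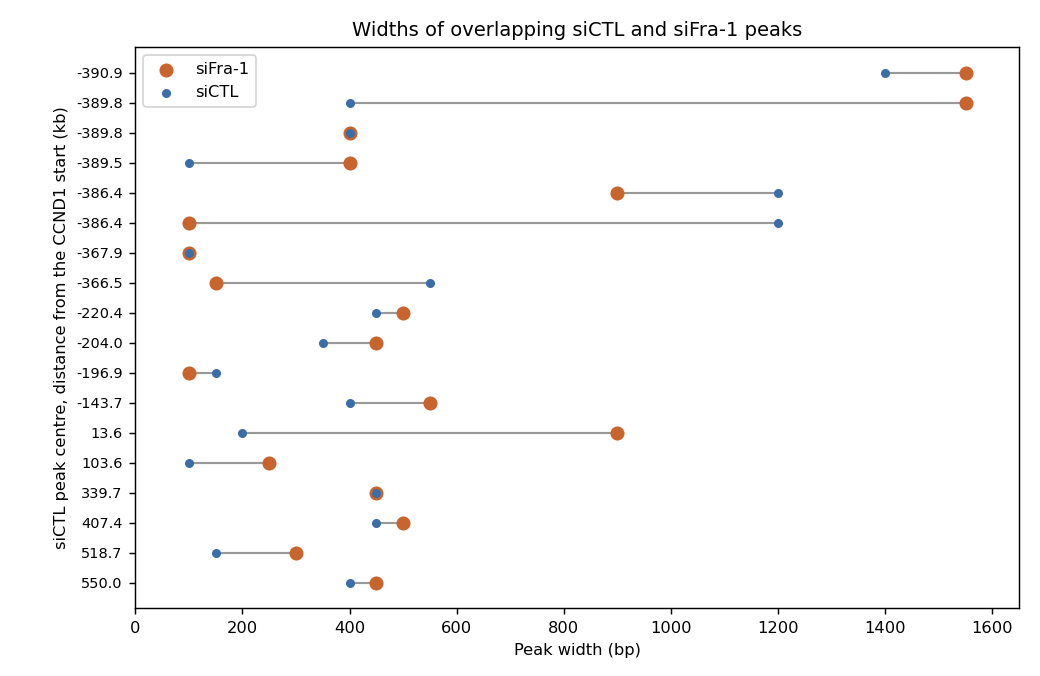
Widths in bp of the 18 overlapping siCTL (small blue points) and siFra-1 (large orange points) peaks, in order along the chromosome by the distance of the siCTL peak from the CCND1 start in kb. The orange point lies to the right of the blue one in 11 pairs, with the longest lines at MYEOV and at the 3′ end of CCND1, where 200 bp in siCTL met 900 bp in siFra-1.

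Around the starts of the named genes all 6 had fewer siFra-1 than siCTL peaks within 100 kb, as did 81.9% of 20163 protein-coding genes. MYEOV had 22 siCTL and 14 siFra-1 peaks, CCND1 11 and 7, and ANO1 13 and 5. FADD (ENSG00000168040, chr11:70049402-70053496) had 9 and 8, PPFIA1 6 and 2, and CTTN 8 and 1. The median gene had 6 and 2, so these genes sat at or above it in siCTL. In siFra-1, CTTN lay below the median and PPFIA1 at it.

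Wide peaks within 100 kb did not follow the total. They numbered 4 in siCTL and 3 in siFra-1 at MYEOV, 3 and 2 at ANO1, 1 and 2 at FADD, and 0 and 1 at CCND1, with none at PPFIA1 or CTTN. The mean protein-coding gene had 0.364 and 0.513. The counts at MYEOV and ANO1 include the wide siCTL peaks that chose the segment, so nothing is read from this comparison. FADD is the member whose direction turned with the window, with 4 siCTL and 5 siFra-1 peaks within 50 kb, while PPFIA1 had 3 and 0 and CTTN 2 and 1 within 50 kb. The wide peaks near FADD lie in ANO1 introns. Of the further genes, LTO1, FGF19, FGF4, FGF3, TPCN2, SMIM38 and the protein-coding locus ENSG00000287725 also had fewer siFra-1 peaks, whereas SHANK2, a postsynaptic scaffold gene whose start lies outside the segment, had 8 siCTL and 12 siFra-1 peaks.

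**Figure D5:**
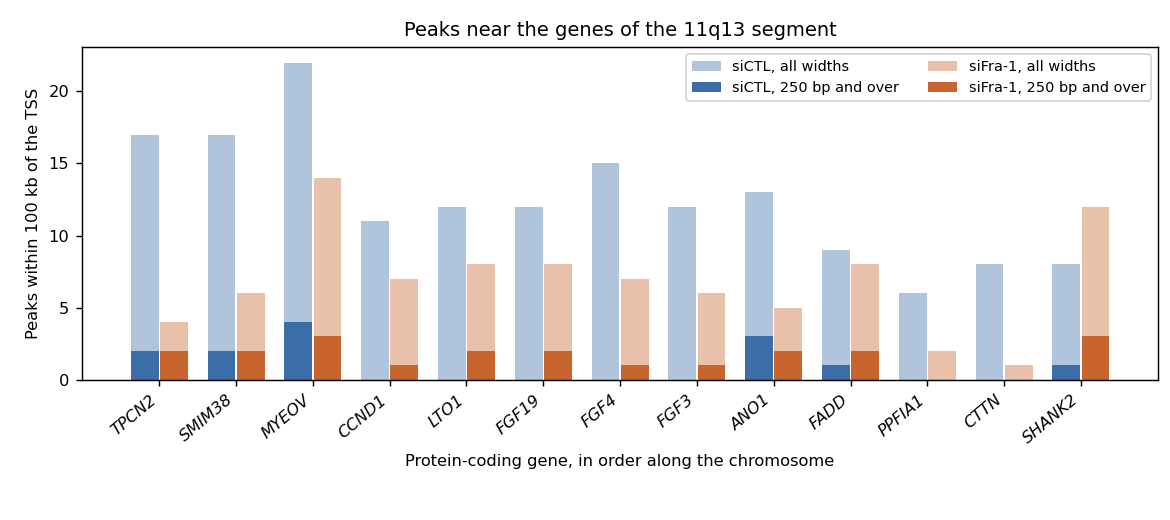
Peaks with their centre within 100 kb of the start of each protein-coding gene with a symbol that overlaps the segment, siCTL (blue) beside siFra-1 (orange), with the wide peaks in the darker lower part of each bar. The siFra-1 bar is the shorter for every gene shown except SHANK2, at 8 and 12.

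Promoters held few of these peaks. Windows of 3 kb centred on starts of protein-coding genes overlapped 4 of 97 siCTL peaks (4.12%), 2 at MYEOV and 2 at LTO1, and 0 of 52 siFra-1 peaks; 3.97% of all siCTL and 4.84% of all siFra-1 peaks did. By their centres, 48 of the siCTL and 20 of the siFra-1 peaks lay between genes, and 30 and 16 in introns of coding transcripts. Median distances to the nearest protein-coding start were 36.0 and 30.9 kb.

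AP-1 motifs of the siCTL list lay mostly in its wide and overlapped peaks. Of its 97 peaks, 11 had a motif in the central 200 bp (11.3%, 6.45 to 19.2), where 3.09% of windows moved by 2 kb to both sides and 6.15% of all peaks of the list did. Over the series, 31.9% of wide and 4.38% of 100 bp siCTL peaks had one. Wide peaks made up 11.3% of siCTL peaks here and 4.41% over the series. The part of width in the motif share of the segment was not tested. Overlapped siCTL peaks of the segment had a motif in 7 of 16 cases (43.8%) and the others in 4 of 81 (4.94%). Over the list these shares were 22.2% and 4.46%. None of the 67 siCTL peaks of 100 bp without overlap had one. The siFra-1 list had a motif in 8 of 52 peaks (15.4%, 8.01 to 27.5), where 4.81% of moved windows and 9.08% of all its peaks did. Its overlapped peaks held one in 3 of 16 cases (18.8%) and the others in 5 of 36 (13.9%). Over the list these shares were 22.8% and 5.83%. Of the 29 siFra-1 peaks of 100 bp without overlap, 4 had one (13.8%, 5.50 to 30.6), where 5.43% of all siFra-1 peaks of 100 bp did. The 200 bp window is wider than these peaks, and 2 of the 29 (6.90%) held a motif inside the peak itself. Searched over the whole peak, the siFra-1 shares were 7 of 16 (43.8%) and 3 of 36 (8.33%), and those of siCTL 7 of 16 and 3 of 81 (3.70%). Over the series these whole-peak shares were 26.9% and 4.06% in siFra-1, and 23.6% and 2.62% in siCTL.

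Wide siCTL peaks had a central motif in 7 of 11 cases (63.6%, 35.4 to 84.8), where 31.9% of all wide siCTL peaks did. Wide siFra-1 peaks had one in 3 of 12 (25.0%, 8.89 to 53.2), where 22.9% of all did. Searched over their whole length the shares were closer, 8 of 11 (72.7%, 43.4 to 90.3) and 7 of 12 (58.3%, 32.0 to 80.7), beside 41.6% and 32.5% over the series. The difference between the lists was not tested because most of these peaks are the same sites. The wide peaks of the segment were also long for their class, with 4 of 11 siCTL peaks at 500 bp or more where 782 of 3655 were over the series, and the part of length in the whole-peak shares was not tested.

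Counted by position, 19 distinct AP-1 motifs lay inside peaks of the segment, out of 278 present in its sequence (6.83%). Of these, 15 were inside siCTL peaks, 13 inside siFra-1 peaks and 9 inside both. Over the series 45.1% of the motifs in siCTL peaks were also in a siFra-1 peak and 51.7% of those in siFra-1 peaks in a siCTL peak, beside 60.0% and 69.2% here. The 6 found in siCTL alone include the pair in the 550 bp MYEOV peak and the pair in the 800 bp peak upstream of ANO1. The 4 found in siFra-1 alone lie in the 250 bp peak before FGF4, in the CTTN intron, and in 2 peaks of 100 bp.

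The other 5 motifs were searched on both strands in the same windows. TEAD was found in the central 200 bp of 12 siCTL (12.4%) and 10 siFra-1 (19.2%) peaks, with 8.25% and 10.6% in moved windows and 13.2% and 17.4% over all peaks of the lists. Shared peaks held TEAD in 5 of 16 cases in siCTL and 7 of 16 in siFra-1, beside 28.0% and 28.4% of all shared peaks. RUNX was found in 17.5% and 17.3% of peaks, with 18.6% and 22.1% in moved windows and 15.6% and 17.6% over the lists. Shared peaks held RUNX in 6 of 16 and 5 of 16 cases, beside 20.6% and 21.3% of all shared peaks. ETS (CCGGAA) was in 1 of 97 siCTL peaks, with 3.61% in moved windows and 2.01% over the list, and in 4 of 52 siFra-1 peaks (7.69%), with 1.92% and 3.08%. FOX (TGTTTAC) was in none of the siCTL peaks and in 2 siFra-1 peaks (3.85%, with 0.962% in moved windows and 4.69% over the list), and the cyclic AMP response element TGACGTCA was in none of either list. A match to a motif shows these letters alone and no binding.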

How the data were processed

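The authors aligned reads to hg19, kept unique reads, binned them at 50 bp in PASHA with scaling and background subtraction, and took as peaks the runs above 25 in the Integrated Genome Browser, with a gap and run setting of 50 each. The aligner is BWA-backtrack in the methods of the study and Bowtie2 in the submitters' processing notes. The deposited lists give peak positions without a unit of signal (no height, score or count), so a fixed threshold applied after scaling decides both number and width, and a signal just below it is not listed. All edges lie on a grid of 50 bp. Starts were raised by 1 for printing and may be 1 bp off.

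Peaks were assigned to the segment by their centre. Peaks sharing at least 1 bp were called overlapped. Genes and transcripts came from GENCODE release 44 lifted to GRCh37, and sequence from GRCh37. Motifs were matched on both strands in the central 200 bp, with windows moved by 2 kb as background. Genes named are the 6 of the segment label and every other protein-coding gene overlapping it. Peaks named are all of 250 bp or more, those near a start of the 6 genes, the partners of these peaks, and neighbours or CTTN, CCND1 and LTO1 sites singled out after their values were seen. Members, lists and motifs were chosen with earlier results of these data known.

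Groups came from the labels: siCTL and siFra-1, 1 list each, and an input sample that was not analysed here. Shares have Wilson and ratios Clopper-Pearson intervals at 95%, covering counting error over neighbouring, non-independent peaks only. Depth per sample is unknown, so its precision could not be stated. Functions written in Python 3.11.15 (numpy 2.4.6, scipy 1.17.1, matplotlib 3.10.9) were tested on simulated data, recovering 1667 of 1667 planted overlaps and 500 of 500 planted motifs, with bedtools 2.31.1 as reference. Alternatives were minimum widths of 150 and 250 bp, merging within 500 bp, edges moved by 100 kb, an overlap of 50%, a distance of 200 bp counted as overlap, a motif window of 400 bp or the whole peak, the motif TGANTCA, gene windows of 50 and 250 kb, and, chosen after the data were seen, the start of the canonical transcript.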

Additional observations from a re-analysis of the deposited data

How the results depend on the processing

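The ratio of siFra-1 to siCTL peak numbers kept its direction with merging and with moved edges. It was 0.741 with a minimum of 150 bp, where its interval (0.394 to 1.37) contained 1, and reversed to 1.09 with a minimum of 250 bp. The share of siCTL peaks overlapped moved to 44.4% with both lists limited to 150 bp and over and to 81.8% with 250 bp and over. The share of siFra-1 peaks overlapped moved to 60.0% and 75.0% under the same limits, and to 50% when peaks within 200 bp counted as overlapped. The AP-1 share of siCTL peaks moved to 63.6% at 250 bp and over. The number of named genes with fewer siFra-1 peaks moved from 6 to 2 when wide peaks alone were counted, since CCND1 and FADD then had more and PPFIA1 and CTTN none. It was 5 within 50 kb, and 6 within 250 kb and from canonical starts, which were added after the data were seen. The siFra-1 to siCTL ratio at PPFIA1 moved to 0 within 50 kb. Of 52 values under alternatives, 43 stayed within the interval of the value reported or, for counts of genes, within 1.5 times it. No paired analysis was possible because each condition has 1 pooled library. A stricter threshold by height was not run, because the lists give no height. Without read depth, absence from a list is not absence of signal, and copy number of the segment was not measured here.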
